A study of Mus musculus with 2 samples.

Results

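The genes described here are 7 genes of peripheral myelin and Schwann cells, Prx, Pmp22, Ncmap, Drp2, Scn7a, Egfl8 and Pmp2, of 32285 genes in the count matrices. They were chosen by name as known Schwann cell genes, with their UMI counts in these same libraries known, so their levels are given as a description. A UMI (unique molecular identifier) marks 1 captured RNA molecule, and levels are given as CPM, the UMIs of a gene per 1000000 UMIs of the same barcodes.

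The study profiled nuclei from injured spinal cord of male iNeuroD1GFP mice, a transgenic line carrying a tamoxifen-inducible NeuroD1, by 10x Genomics 3′ single-nucleus RNA sequencing. Mice were injured at postnatal day 60 (labelled 8 weeks old), received tamoxifen at 100 mg/kg/day on days 5 to 8 after injury and gave nuclei on day 10. The cord of 3 mice was divided into an injury core and a region named distal in the titles and peri-injury in the extraction protocol, and each gave 1 library. Both libraries therefore carry the transgene, the tamoxifen and the injury, the labels do not say whether the mice were pooled or which promoter drives the transgene, and no uninjured or uninduced cord was analysed here. With 1 library per region no difference has a replicate check and no p-value is given. All intervals are exact 95% intervals for counting error only, and they are too narrow where a few barcodes hold most UMIs of a gene.

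Schwann cells wrap the axons of peripheral nerves and spinal roots, and oligodendrocytes do so inside the cord. Pmp22 and the lipid-binding protein Pmp2 are proteins of compact peripheral myelin. On the outer face of the Schwann cell, periaxin (Prx) and dystrophin-related protein 2 (Drp2) form a complex with dystroglycan that ties the membrane to the basal lamina. Schwann cells are known to enter the cord from the roots after injury.

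The core library held 16362 barcodes with 30469263 UMIs, and the distal library held 7452 barcodes with 19049572 UMIs, of which 16360 core and 7443 distal barcodes were kept. A barcode had a median of 1303 UMIs (500 to 45528) in the core and 1743 UMIs (500 to 69539) in the distal library. Nuclei were clustered without the 7 genes, and clusters were named from markers, so every class is a neuron-like, oligodendrocyte-like or similar class, written without the suffix below except for hepatocyte-like nuclei. The core library stood apart from the distal one: 55.9% of its barcodes fell in neuron clusters and 38.1% were background-like, meaning that they varied little beyond sampling from 1 shared profile. The neuron markers were only 1.09-fold higher in core neurons than in the rest of the core, with 6 of 7 markers higher, against 2.77-fold in distal neurons. The core held 10 oligodendrocytes, against 1726 in the distal library. No cluster was named Schwann at the main settings. A cluster of 79 core and 471 distal barcodes, called cluster 9 here, had Hbb-bs, Nefl, Fth1 and Nefh among its leading genes. Its marker score was highest for erythroid genes (2.11) and next for Schwann genes (0.726), and it was given no cell type name because 3 of its 10 leading genes were haemoglobin genes. Doublets were not removed, and 38 barcode sequences occurred in both libraries, 0 of which held 2 or more UMIs of the 7 genes in either.

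The members lie on 7 chromosomes (GRCm38, GENCODE M21). Prx (ENSMUSG00000053198) lies at chr7:27499324-27520214 on the plus strand, with the antisense gene Gm15541 over it, and Pmp22 (ENSMUSG00000018217) at chr11:63128982-63159547 on the plus strand. Ncmap (ENSMUSG00000043924) lies at chr4:135369576-135398227 on the minus strand and Drp2 (ENSMUSG00000000223) at chrX:134404551-134456573 on the plus strand. Scn7a (ENSMUSG00000034810) lies at chr2:66673425-66784914 on the minus strand. Egfl8 (ENSMUSG00000015467), at chr17:34613349-34615971, and Pmp2 (ENSMUSG00000052468), at chr3:10179851-10183929, are both on the minus strand and each overlaps another gene on the same strand, Gm20460 for Egfl8 and Gm37389 for Pmp2, so their counts are uncertain. The sources used here do not state whether intronic reads were counted, or on which strand.

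EGR2 (Krox20) is the factor that drives the myelinating state of Schwann cells, and its family binds a GC-rich core. RefSeq promoters (GRCm38.p6, 250 bases before to 50 after a start) were found for 5 of the 7 genes, 9 promoters in all, and are shown because 3 of these genes hold the core letters GCGTGGG, or CCCACGC when read on the other strand. That is 3 of 9 member promoters, against 5.04% of all 32851 promoters. Capitals mark the match, and the first Pmp22 promoter, with no match, is shown beside them.
Prx, chr7:27499074-27499373, plus strand: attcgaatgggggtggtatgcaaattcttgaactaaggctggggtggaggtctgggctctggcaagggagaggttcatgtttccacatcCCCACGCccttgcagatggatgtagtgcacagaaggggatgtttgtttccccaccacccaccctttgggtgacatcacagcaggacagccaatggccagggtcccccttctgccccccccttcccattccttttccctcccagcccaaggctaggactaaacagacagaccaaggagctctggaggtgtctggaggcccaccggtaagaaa
Ncmap, chr4:135385623-135385922, minus strand: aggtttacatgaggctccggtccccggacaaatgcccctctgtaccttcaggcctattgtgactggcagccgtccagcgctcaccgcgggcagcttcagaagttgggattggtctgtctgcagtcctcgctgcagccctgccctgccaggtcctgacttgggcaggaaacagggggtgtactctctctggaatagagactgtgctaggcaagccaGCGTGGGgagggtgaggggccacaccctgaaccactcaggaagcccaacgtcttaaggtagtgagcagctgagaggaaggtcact
Scn7a, chr2:66784861-66785160, minus strand: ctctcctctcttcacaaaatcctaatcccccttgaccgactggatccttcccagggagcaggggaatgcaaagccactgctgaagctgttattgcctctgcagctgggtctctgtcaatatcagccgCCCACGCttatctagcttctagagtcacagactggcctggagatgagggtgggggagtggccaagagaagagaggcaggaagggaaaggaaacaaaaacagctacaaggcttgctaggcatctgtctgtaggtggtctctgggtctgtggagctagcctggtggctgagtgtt
Pmp22, chr11:63128732-63129031, plus strand: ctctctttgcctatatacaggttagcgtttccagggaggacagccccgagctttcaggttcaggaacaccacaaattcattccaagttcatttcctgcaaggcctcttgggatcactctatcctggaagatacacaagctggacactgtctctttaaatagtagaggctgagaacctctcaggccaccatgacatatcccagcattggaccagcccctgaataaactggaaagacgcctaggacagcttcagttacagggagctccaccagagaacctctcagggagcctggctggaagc
The SOX letters ACAAAG, or CTTTGT, occurred in 1 of the 9 promoters, that of Egfl8, and in 18.7% of all promoters. A match of letters is no evidence of binding, and these windows cover 300 bases each.

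In all, the 7 genes had 1949 UMIs in the core library (64 CPM) and 1314 UMIs in the distal library (69 CPM), a core over distal ratio of 0.927 (0.864 to 0.995). The sum hid members that ran in opposite directions between the libraries. Pmp22, a tetraspan protein of compact myelin whose dosage is altered in inherited neuropathies, had 165 UMIs in the core (5.42 CPM) and 492 in the distal library (25.8 CPM), a ratio of 0.21 (0.175 to 0.251). Prx had 27 UMIs in the core (0.886 CPM) and 32 in the distal library (1.68 CPM), a ratio of 0.527 (0.304 to 0.909). The intervals of these 2 members lay below 1.
Drp2 had 1065 UMIs in the core (35 CPM) and 494 in the distal library (25.9 CPM), a ratio of 1.35 (1.21 to 1.5). Scn7a, an atypical sodium channel of non-myelinating Schwann cells that is also known in sodium-sensing glia, had 389 UMIs in the core (12.8 CPM) and 162 in the distal library (8.51 CPM), a ratio of 1.5 (1.25 to 1.81). Ncmap, a protein of non-compact myelin in Schwann cells, had 266 UMIs in the core (8.73 CPM) and 101 in the distal library (5.3 CPM), a ratio of 1.65 (1.3 to 2.09). These 3 genes were the ones higher in the core. Egfl8, which encodes a secreted EGF-like protein, had 37 UMIs in the core and 32 in the distal library, never more than 1 in a barcode. Pmp2 had 0 UMIs in 16360 core barcodes, a count that leaves room for a share of 0.0183%, and 1 UMI in the distal library, so its level could not be measured at this depth. The libraries differ in their mix of classes, so the levels within classes follow.

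Pmp22 had its highest CPM in cluster 9, though distal oligodendrocytes (114 UMIs) and neurons (93 UMIs) held more of its UMIs than distal cluster 9. Its level was 696.2 CPM (537.3 to 887.4) in core cluster 9, from 65 UMIs in 9 of 79 barcodes, 39 of them in 1 barcode. In distal cluster 9 it was 150.9 CPM (117.8 to 190.3), from 71 UMIs in 36 of 471 barcodes. Distal fibroblasts came next with 67.8 CPM (47.8 to 93.5), cluster 9 being 2.22-fold higher (1.47 to 3.4). Below them, endothelial cells had 41.1 CPM, myeloid cells 35.5 CPM, oligodendrocytes 32.4 CPM, astrocytes 32.2 CPM and hepatocyte-like nuclei 30 CPM, and the ratios of neighbours in that order had intervals that hold 1. Distal neurons had the lowest level of any class with more than 1 UMI, 12.6 CPM (10.2 to 15.4), against which oligodendrocytes were 2.57-fold higher (1.94 to 3.42). Pmp22 RNA was therefore found across all distal classes, with 5.97% of oligodendrocytes (median 1729 UMIs) and 4.04% of neurons (median 2635 UMIs) holding a UMI. In the core, neurons had 2.37 CPM (1.78 to 3.1) and background-like barcodes 4.28 CPM (2.82 to 6.23), while 5 UMIs gave core fibroblasts 34.3 CPM. The neuronal level in the core lay below that of the background-like barcodes, which were 1.8-fold higher (1.09 to 2.91), and the part of free RNA in it was not tested.

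Prx, the periaxin scaffold, was also highest in cluster 9, at far lower counts. Core cluster 9 had 64.3 CPM (23.6 to 139.9) from 6 UMIs in 3 barcodes, 57.9-fold above the core background-like barcodes (16.1 to 201.3). Distal cluster 9 had 21.3 CPM (10.2 to 39.1) from 10 UMIs in 4 barcodes. Distal myeloid cells, fibroblasts and astrocytes followed with 3 UMIs each, at 7.09, 5.5 and 2.35 CPM. Cluster 9 was 3-fold above the myeloid cells, with an interval (0.772 to 16.9) that holds 1, and 24.9-fold above oligodendrocytes (6.42 to 141). Neurons had 0.484 CPM in the core and 0.812 CPM in the distal library.

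Drp2, the partner of periaxin, was highest in cluster 9 only in the core. Neurons had 35 CPM in each library (32.6 to 37.5 in the core and 30.9 to 39.6 in the distal library), and 8.04% of core and 10.5% of distal neurons held a UMI. Distal astrocytes had 43.9 CPM, cluster 9 40.4 CPM and myeloid cells 40.2 CPM, and their ratios to neurons had intervals that hold 1. Below neurons stood OPCs (oligodendrocyte precursors) with 19.4 CPM, neurons being 1.8-fold higher (1.07 to 3.27), then endothelial cells with 13.7 CPM and fibroblasts with 12.8 CPM. Distal oligodendrocytes were lowest with 7.1 CPM (4.6 to 10.5), neurons being 4.93-fold higher (3.27 to 7.76), and 1.45% of them held a UMI; the level was 11.4 CPM when each nucleus was classed on its own. The 50 distal background-like barcodes had 71.7 CPM (19.5 to 183.7) from 4 UMIs, and the part of free RNA in these levels was not tested. Core background-like barcodes had 35.5 CPM, 1.01-fold the level of neurons (0.871 to 1.18), and 3.5% of them held a UMI at a median of 933 UMIs, against a median of 1934 in neurons. Core cluster 9 stood higher, at 150 CPM (82 to 251.6), 3.17-fold above the 5 UMIs of core astrocytes (1.08 to 11.2).

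Scn7a was highest in distal fibroblasts, at 56.8 CPM (38.6 to 80.7), from 31 UMIs in 27 barcodes, 6.19% of that class, and 20.3 CPM when each nucleus was classed on its own. Distal cluster 9 had 36.1 CPM (21 to 57.8), which fibroblasts exceeded 1.57-fold with an interval that holds 1 (0.844 to 3.03). Neurons had 12.2 CPM in the core and 9.74 CPM in the distal library, and distal fibroblasts were 5.84-fold above distal neurons (3.7 to 9.01). Distal oligodendrocytes had 1.42 CPM, with a UMI in 0.29% of barcodes against 2.68% of neurons, and neurons were 6.86-fold higher (2.81 to 21.8). In core cluster 9 Scn7a had 0 UMIs, which allows up to 32.1 CPM, and core background-like barcodes, at 15.7 CPM, were 1.28-fold above core neurons (1.01 to 1.62).

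Ncmap had 9.54 CPM in core neurons (8.31 to 10.9), 6.9 CPM in distal neurons (5.14 to 9.07) and 6.5 CPM in core background-like barcodes. Distal oligodendrocytes had 3.41 CPM, and distal neurons were 2.02-fold above them (1.06 to 4.17). Among classes with more than 1 UMI, cluster 9 had the highest levels, 42.8 CPM in the core from 4 UMIs and 14.9 CPM in the distal library from 7 UMIs. Egfl8 had 1.23 CPM in core neurons and 0.947 CPM in distal neurons, and distal fibroblasts, astrocytes and oligodendrocytes had 5.5, 3.92 and 2.27 CPM from 3, 5 and 8 UMIs. The single Pmp2 UMI lay in a distal oligodendrocyte.

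**Figure D1:**
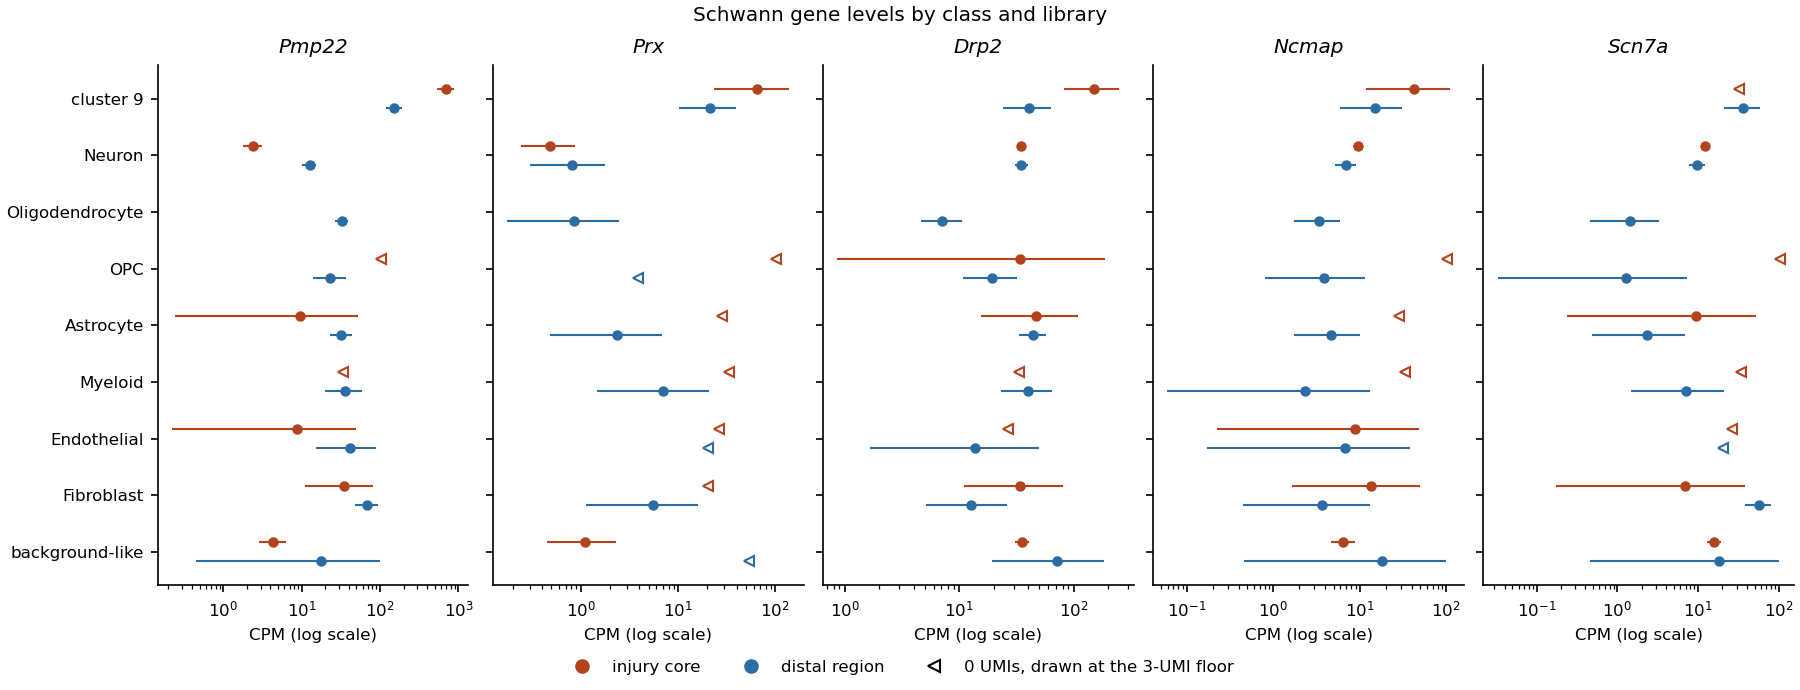
Level of 5 of the genes by class (rows) and library, as CPM on a log axis with exact 95% Poisson intervals; open triangles mark classes with 0 UMIs at the level that 3 UMIs would give, and classes under 20 nuclei are not drawn. Pmp22 and Prx peak in cluster 9 in both libraries, Drp2 is level between neurons and core background-like barcodes and low in distal oligodendrocytes, and Scn7a peaks in distal fibroblasts.

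Within neurons, Scn7a differed among clusters. A neuron cluster led by D130009I18Rik, Tafa1, Kcnip1 and Cdh4 (589 nuclei) had 41.1 CPM (31.2 to 53.2), from 58 UMIs, and 8.66% of its nuclei held a UMI. It had 43.3 CPM in the core, against 10.4 CPM in other core neurons, and 21.4 CPM from 3 UMIs in the distal library, against 9.52 CPM in other distal neurons. Over both libraries together, the other neuron clusters lay between 1.74 and 12.6 CPM. In the distal library alone, the cluster led by Syt2 and Grip1 was higher, with 45.9 CPM (22 to 84.5) from 10 UMIs. The D130009I18Rik cluster was picked out after its value was seen, so the gap is a description. Drp2 ranged between 19 and 60.7 CPM over the neuron clusters, highest in a cluster led by Ebf2 and Maml3 (43.9 to 81.8), and Ncmap between 1.41 and 12.2 CPM.

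Core and distal levels were compared within each class that had at least 50 nuclei in both libraries, and a gene was called when the ratio reached 1.5-fold and the higher library had 10 CPM and 10 UMIs or more. In neurons 3 members could be called and 1 was: Pmp22 was lower in the core, 2.37 CPM against 12.6 CPM in distal neurons, a ratio of 0.189 (0.132 to 0.267). Among all 9632 genes tested there, 12.3% were called lower and 5.02% higher (1186 and 484 genes). Scaling by the trimmed mean of M-values (TMM) shifted all log2 ratios by 0.142, which gave 922 genes lower and 1008 higher. Drp2, with a ratio of 0.999 (0.867 to 1.15), and Scn7a, with 1.25 (0.965 to 1.65), were not called. Ncmap had 1.38 (1.01 to 1.91), Egfl8 1.3 (0.555 to 3.52) and Prx 0.596 (0.202 to 1.96), below the minimum for a call. Under TMM scaling Ncmap passed 1.5-fold and was the only further member to do so.

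The genes of oligodendrocyte myelin moved with Pmp22 in neurons. Of the genes that Schwann cells and oligodendrocytes share, all 8 tested were lower in core neurons, with a median log2 ratio of -2.41 against -0.0163 over all genes tested. Mbp, a myelin basic protein gene, had 154 CPM in core neurons and 735 CPM in distal neurons, and Mag, of a glycoprotein facing the axon, 24.8 CPM in core and 186.6 CPM in distal neurons. All 7 tested genes of central myelin were lower too, with a median of -3.02, such as Mobp with 31.1 CPM in core neurons and 260.2 CPM in distal neurons. These are known as genes of glia, and the source of their RNA in neuron barcodes and its part in the Pmp22 difference were not tested.
Of the dystroglycan complex, to which Prx and Drp2 bind, 1 of 9 tested genes was called, Lama2, which was lower (0.304), and the median log2 ratio was 0.00271. Dmd, encoding dystrophin, had 803.1 CPM in core neurons and 801.6 CPM in distal neurons. Of the other sodium channel genes 0 of 5 tested were called, with a median of 0.151. The ratios of Drp2 and Scn7a thus lay near the medians of these lists, and that of Pmp22 near those of the myelin lists. Of the transcription factors of Schwann cells, 2 of 5 tested were lower, Sox10 (1.8 CPM in core neurons, 20.4 CPM in distal neurons) and Zeb2 (205.6 CPM in core neurons, 590.1 CPM in distal neurons), both also expressed by oligodendrocytes. Nrg1, the neuregulin by which axons signal to Schwann cells, had 2654.9 CPM in core neurons and 2322.9 CPM in distal neurons, and Erbb3, its receptor on glia, was lower with 2.42 CPM in core and 14.1 CPM in distal neurons. The paralogs of Pmp22 (Emp1, Emp2 and Emp3) and of Pmp2 (Fabp3, Fabp4, Fabp5 and Fabp7) were all under the minimum for a call in neurons, and Fabp4 had 0 UMIs there in both libraries.

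**Figure D2:**
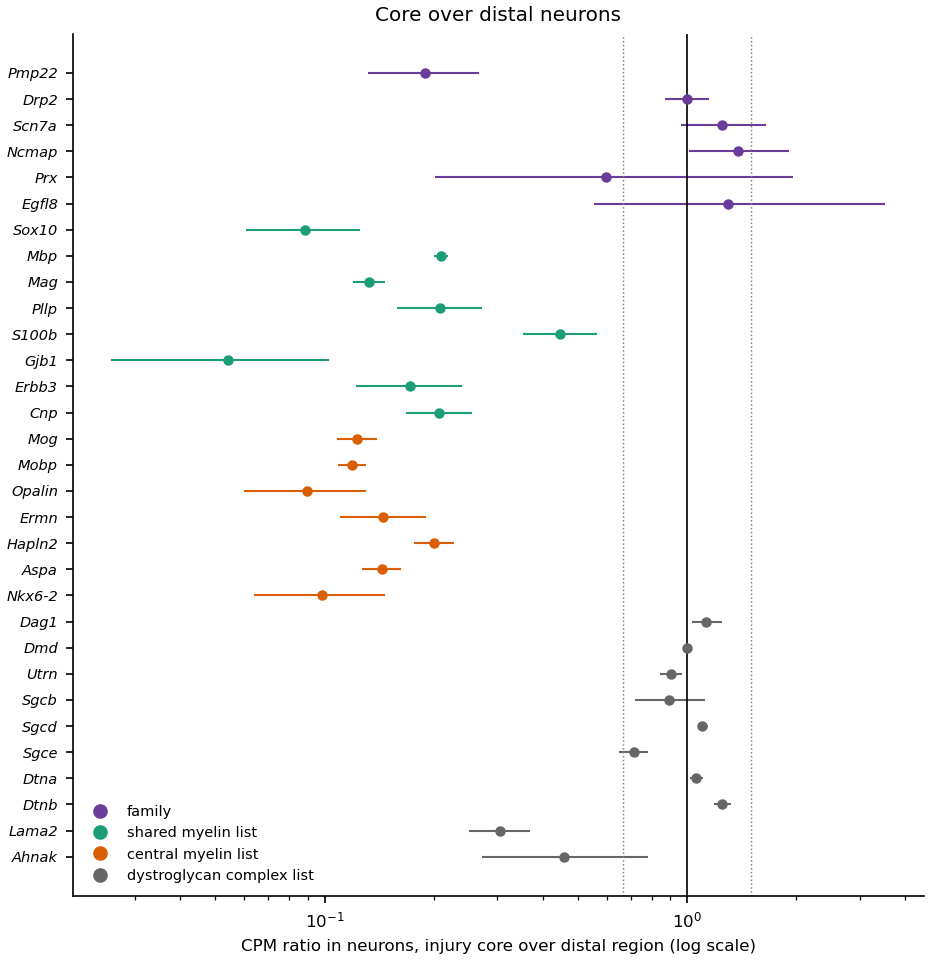
CPM ratio of core over distal neurons (log axis) with exact 95% intervals for the family and genes of 3 lists; dotted lines mark 1.5-fold in each direction. Pmp22, at 0.189, lies among the shared and central myelin genes on the left, and Drp2, at 0.999, and Scn7a, at 1.25, lie near 1 with most of the dystroglycan complex genes.

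Cluster 9 ran the other way for Pmp22. It had 696.2 CPM in the core and 150.9 CPM in the distal library, a ratio of 4.61 (3.24 to 6.55), and was called, as was Drp2 with 150 CPM in the core and 40.4 CPM in the distal library, a ratio of 3.71 (1.72 to 7.81). Of 7972 genes tested in that cluster, 8.88% were called higher in the core. Prx had a ratio of 3.02 (0.903 to 9.18), and its 6 core UMIs were too few for a call. A single core barcode held 39 of the 65 core Pmp22 UMIs, and without it the Pmp22 ratio was 2.09. The same barcode held 5 of the 14 core Drp2 UMIs. Without it the Drp2 ratio was 2.7, with too few core UMIs left for a call. Another core barcode held 14 Pmp22 UMIs and was kept in these ratios. The core level of Pmp22 thus rests mainly on these barcodes, and a ratio without both was not computed. At clustering resolution 2.0 the ratios were 9.07 for Pmp22 and 6.12 for Drp2. Scn7a had 0 UMIs in core cluster 9 and 17 in distal cluster 9, and was not called. The interval of its ratio (0 to 1.22) holds 1, so these counts do not fix a direction. Haemoglobin genes had 631.9 CPM in core cluster 9 and 1107.2 CPM in distal cluster 9, and their part in these values was not tested. Of the central myelin genes 6 of 7 tested were lower in core cluster 9, where 29.5% of all tested genes were called lower, the opposite direction to Pmp22 there. Of the genes that Schwann cells and oligodendrocytes share, 5 of 8 tested were called lower there and 2 higher, Mbp and S100b. Of the dystroglycan complex genes, Utrn (utrophin) and Sgcd (a sarcoglycan) were called higher in core cluster 9 and Lama2 and Ahnak lower, out of 9 tested.
In fibroblasts both tested members were called lower in the core, where 31.4% of tested genes were. Scn7a had 1 UMI in core and 31 in distal fibroblasts, a ratio of 0.121 (0.00296 to 0.725) that was 0.375 when each nucleus was classed on its own, and Pmp22 5 UMIs in core and 37 in distal fibroblasts, a ratio of 0.506 (0.155 to 1.29). In astrocytes Pmp22 was called lower, with 1 UMI in the core and 41 in the distal library (0.294, 0.00727 to 1.73), and Drp2 was not (1.08, 0.336 to 2.66), where 23.5% were called lower. The intervals of Pmp22 in fibroblasts and astrocytes hold 1, so these counts do not fix its direction. In endothelial, myeloid and background-like barcodes 0 members were called, where 47%, 44.4% and 30.9% of tested genes were called in either direction. In endothelial cells 0 members met the minimum for a call. In myeloid cells Pmp22 and Drp2 had 0 core UMIs and were set to the limit of 33.5 CPM. Against 35.5 and 40.2 CPM in distal myeloid cells they could not reach 1.5-fold. In background-like barcodes the tested Drp2 and Scn7a had 4 and 1 distal UMIs. These 0 calls therefore do not show equal levels.

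Barcodes with at least 2 UMIs over the 7 genes were few. There were 185 in the core (1.13%, 0.974 to 1.3) and 187 in the distal library (2.51%, 2.17 to 2.89). They were deep, with a median of 3392 UMIs in the core and 4031 in the distal library, against medians of 1295 among the other core and 1722 among the other distal barcodes. After each barcode was thinned to 1000 UMIs, 26 of 11179 core barcodes (0.233%) and 34 of 5936 distal barcodes (0.573%) still held 2 UMIs, with 5181 core and 1507 distal barcodes too shallow to enter. The 2 libraries thus held nearly the same number, and the distal share was the higher at both depths.
Most of the core barcodes were neurons, 153 of 185 (82.7%), with 22 background-like barcodes, 7 of cluster 9, 2 fibroblasts and 1 in an unnamed cluster. Of the distal barcodes 77 of 187 were neurons (41.2%), 36 lay in a cluster mixed between classes, 17 in cluster 9, 16 were oligodendrocytes, 16 astrocytes and 10 fibroblasts. The mixed cluster scored highest for myeloid genes (0.882) and next for oligodendrocyte genes (0.65). As a share of its class, cluster 9 stood highest in the core, with 8.86% against 1.67% of neurons and 0.353% of background-like barcodes. Of the distal classes the mixed cluster had 6.88%, at a median of 3842 UMIs, neurons 3.62%, cluster 9 3.61%, astrocytes 2.52% and oligodendrocytes 0.927%. At 1000 UMIs the shares were 6 of 33 core cluster 9 barcodes (18.2%) against 0.188% of core neurons and 0.192% of core background-like barcodes, and 4 of 147 distal cluster 9 barcodes (2.72%) against 0.341% of distal neurons. Distal myeloid cells, with 4 of 123 (3.25%), lay above distal cluster 9 at that depth, and distal fibroblasts had 1.76%. The share among core neurons was thus no higher than among background-like barcodes once depth was equal.

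Different genes filled these barcodes in the 2 libraries. In the core they held 211 Drp2 UMIs in 140 barcodes, 97 Scn7a UMIs in 70, 82 Pmp22 UMIs in 26, 60 Ncmap UMIs in 48, 12 Prx UMIs in 6 and 9 Egfl8 UMIs. Those of the distal library held 187 Pmp22 UMIs in 107 barcodes, 152 Drp2 UMIs in 101, 72 Scn7a UMIs in 43, 37 Ncmap UMIs in 31, 22 Prx UMIs in 15 and 7 Egfl8 UMIs. Drp2 led in the core and Pmp22 in the distal library. These UMI numbers are not set per transcript length, and they chose the barcodes.

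The barcodes with the most family UMIs differed in which members they held. In the core, a cluster 9 barcode of 10798 UMIs held 39 Pmp22, 5 Drp2, 1 Prx and 1 Ncmap UMIs, with 35 UMIs of Mbp, and another of 1315 UMIs held 14 Pmp22, 3 Prx and 1 Ncmap UMIs. The next was the deepest barcode of the core, a neuron of 45528 UMIs, with 5 Drp2, 3 Ncmap and 1 Scn7a UMIs and 0 of Pmp22 and Prx. The 3 richest distal barcodes all lay in cluster 9. They held 12 Pmp22, 4 Ncmap and 1 Drp2 UMIs among 1198 UMIs, 6 Pmp22, 5 Prx and 2 Drp2 UMIs among 3235, and 4 Pmp22, 3 Prx, 3 Drp2 and 1 Ncmap UMIs among 4268. Of 2 distal barcodes with 7 family UMIs, the first, in cluster 9, held 6 Pmp22 and 1 Prx UMIs among 643. The other, in the mixed cluster at 10675 UMIs, differed, with 5 Scn7a, 1 Prx and 1 Pmp22 UMIs beside 29 UMIs of Mbp. The next distal barcode, in cluster 9, held 6 Pmp22 UMIs and 0 of every other member among 541 UMIs. Pmp22 was thus the member with the most UMIs in each of the cluster 9 barcodes named so far, and the rich core neuron held 0. Other core cluster 9 barcodes, with 4 family UMIs, differed. One of 641 UMIs held 2 Prx, 1 Pmp22 and 1 Drp2 UMIs, and one of 1101 UMIs held 2 Pmp22 and 2 Drp2 UMIs. A core barcode of an unnamed cluster, of 3163 UMIs, held 3 Prx, 1 Pmp22 and 1 Drp2 UMIs.

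**Figure D3:**
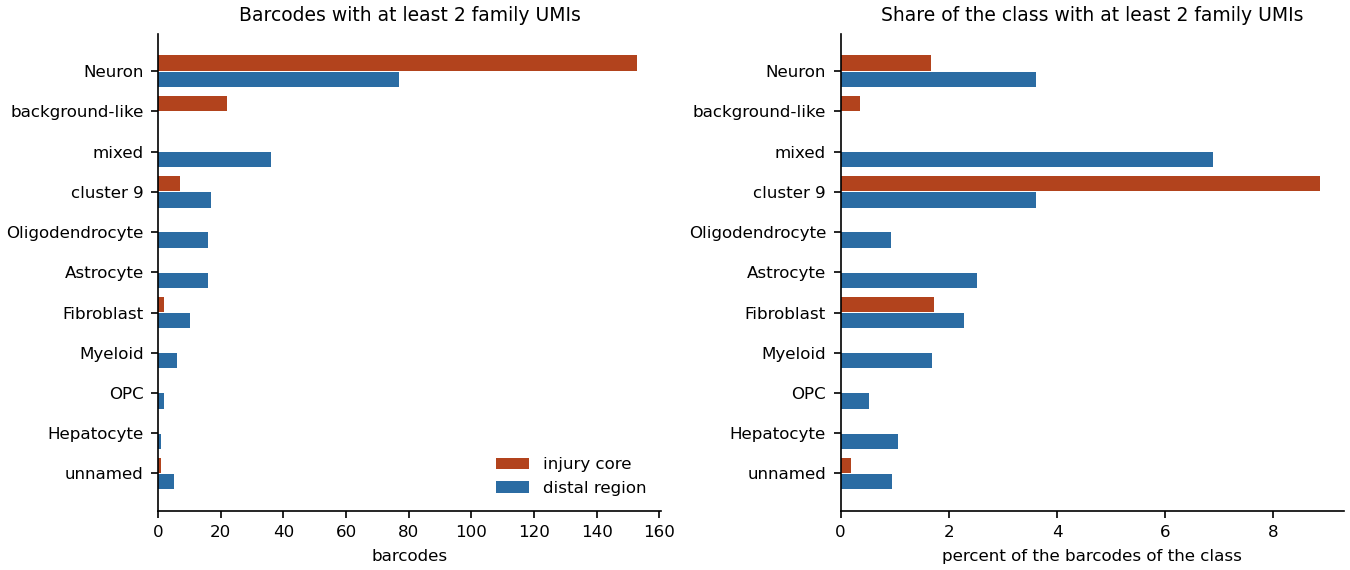
Number of barcodes with at least 2 UMIs over the 7 genes by class (left), and the percent of each class that they make up (right), for core and distal libraries. Neurons make up 153 of 185 core and 77 of 187 distal barcodes on the left. On the right core cluster 9 stands highest, at 8.86%, followed by the distal mixed cluster at 6.88%.

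The other RNA in these barcodes was set against barcodes of the same library and class with no family UMI, weighted by UMI decile, with the 7 genes left out (183 core and 182 distal barcodes could be matched). The barcodes with 2 family UMIs stayed deeper, with means of 6326.9 UMIs in the core and 7518 in the distal library, against 5369.2 in the core and 6692 in the distal library for the weighted barcodes with none. Over all genes 9.49% of 9403 were at least 1.5-fold higher in the core barcodes and 6.66% of 10293 in the distal ones. The sum of 9 Schwann markers was 2.1-fold in the core (1.45 to 2.93), with Foxd3, Egr2 and Pou3f1 at 0, and 1.15-fold in the distal library (1.04 to 1.28), with Foxd3 and Cldn19 at 0. Cdh19 had the most UMIs of these markers, 17 in the core barcodes (1.98-fold) and 327 in the distal ones. Its distal level was 239 CPM, against 211 CPM in barcodes with none (1.13-fold), so the distal sum mostly follows Cdh19. Egr2 (18.1-fold), Dhh (17.8-fold) and Sostdc1 (9.17-fold) had only 3, 1 and 3 distal UMIs.
Among the leading genes of the core barcodes were Sptbn5 (5.78-fold, 3.74 to 8.53), Agmo, Khnyn, Vcan, 4930511M06Rik, Tcf7l2, Zfp787, Chac2 and Fam117a. Sptbn5 encodes a beta spectrin. Of the Tcf7l2 UMIs, 17 of 27 came from 1 barcode. Those of the distal barcodes included 2310014F06Rik (5.22-fold), Prph (4.49-fold, 2.85 to 6.74), D130079A08Rik, Pdk4, S100a6, Filip1, Gm15492, Il31ra and Mettl1. Prph, encoding the intermediate filament peripherin of peripheral and motor neurons, had 23 UMIs in 11 barcodes. The list of peripheral sensory neuron genes to which it belongs was 3.72-fold in the distal library (2.58 to 5.2) and 1.94-fold in the core (1.03 to 3.31, 13 UMIs). The distal sum includes the UMIs of Prph, which was named for its high ratio, so it is not a separate result.

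Among core neurons with 2 family UMIs, oligodendrocyte genes were higher than in those with none. Their list summed to 847.3 CPM, against 390.6 CPM in core neurons with none, a ratio of 2.17 (2.03 to 2.31), and central myelin genes were 2.43-fold (2.09 to 2.81). Other lists were higher too, with 2.63-fold for endothelial genes (2.02 to 3.37, 63 UMIs), 3.34-fold for the 9 Schwann markers (2.27 to 4.75, 31 UMIs) and 1.83-fold for lymphocyte genes (1.37 to 2.41), while astrocyte genes were 0.59-fold. Over all genes 24.4% of 9387 were at least 1.5-fold higher there, so the summed list is to be read against a wide background. Named by rank, Tcf7l2, Agmo, Khnyn, Arpc5, 4930511M06Rik, Gjc3, Bcas1, Tns1, Mog and Vcan led, of which Gjc3 (3.9-fold), Bcas1 (3.78-fold) and Mog (3.6-fold, 2.57 to 4.91) are genes of the oligodendrocyte lineage. Distal neurons had 1.09-fold for the oligodendrocyte list (1.04 to 1.15) and 1.03-fold for central myelin genes (0.923 to 1.14), where 11.1% of 8170 genes were at least 1.5-fold higher. Without depth weighting the distal oligodendrocyte ratio was 0.945, and over the other settings it lay between 1.02 and 1.41, so its direction is not settled. Their leading genes were Phyhd1 (3.79-fold), D130079A08Rik, Hs3st2, 6030407O03Rik, Gm12743, Bcl7a, Ackr4, Trim7, Pdgfd and Adam11. The neuron markers themselves were 0.949-fold in the core and 0.909-fold in the distal barcodes over all classes. In core background-like barcodes the oligodendrocyte list was 0.888-fold (0.459 to 1.55). Doublets of neurons and oligodendrocytes were not removed. Without the 5% of barcodes with the highest Scrublet doublet scores, the oligodendrocyte ratio was 1.94 in core neurons.

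Single barcodes were also read for which members they held together. Of the 21 pairs, Prx with Pmp22 met in 4 core and 11 distal barcodes. Pmp22 was held by 19% of the core barcodes with Prx, against 0.666% of all core barcodes. In the distal library it was held by 44% of the barcodes with Prx, against 5.54% of all barcodes. Prx with Drp2, the partners in the dystroglycan complex, met in 3 core and 4 distal barcodes, so that 14.3% of core and 16% of distal barcodes with Prx held Drp2, against 6.08% of all core and 5.95% of all distal barcodes.
Pairs with Drp2 were more frequent, as Drp2 itself was. Drp2 was present in 18.3% of core barcodes with Pmp22 (20 barcodes) and 9.95% of distal ones (41 barcodes), and in 11.8% of core barcodes with Ncmap (30 barcodes) and 15.8% of distal ones (15 barcodes). Of the barcodes with Drp2, 39 core and 12 distal ones held Scn7a. Barcodes with a pair were deep, with a median of 3003.5 UMIs for Pmp22 with Drp2 in the core and 3802 in the distal library, and the part of depth in these shares was not tested. No barcode of either library held 2 UMIs of Egfl8 or of Pmp2. Pmp22 had 2 or more UMIs in 6 of 109 core barcodes and 50 of 412 distal barcodes with it, and Prx in 4 of 21 core and 3 of 25 distal ones. Drp2 had 2 or more in 61 of 994 core and 46 of 443 distal barcodes, Scn7a in 25 of 362 core and 19 of 133 distal ones, and Ncmap in 10 of 254 core and 4 of 95 distal ones.

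With a stricter minimum of 500 genes per barcode, the same clustering gave a Schwann-like cluster of 30 barcodes, 8 core and 22 distal, named from Schwann markers that include none of the 7 genes. Of its 10 markers 8 were detected, with Foxd3 and Pou3f1 at 0, and 26 of its barcodes came from cluster 9. Since genes that vary with the family shaped the cluster, its levels are a description. Over both libraries it held 42 Pmp22 UMIs in 13 barcodes (975.3 CPM, against 12 CPM elsewhere), 14 Prx UMIs in 5 (325.1 CPM against 0.874 CPM), 11 Drp2 UMIs in 7 (255.4 CPM against 31.3 CPM) and 3 Ncmap UMIs. Scn7a had 0 UMIs in it, which allows up to 69.7 CPM, against 11.1 CPM elsewhere.
The cluster was uneven, as 15 of its 30 barcodes held a family UMI and 10 held 2 or more. In its 8 core barcodes Pmp22 had 2426.2 CPM (1554.5 to 3610) from 24 UMIs in 6 barcodes, and in its 22 distal barcodes 542.7 CPM (321.6 to 857.6) from 18 UMIs in 7. Prx had 505.5 CPM (164.1 to 1179.6) in the core barcodes and 271.3 CPM (124.1 to 515.1) in the distal ones. Cdh19, a cadherin of the Schwann lineage and one of the naming markers, had 44 UMIs in 15 barcodes (1021.8 CPM, against 102.9 CPM elsewhere). In the core only 1 of the 8 barcodes held it, with 8 UMIs. In the 22 distal barcodes it had 1085.3 CPM, against 251.5 CPM in the other distal barcodes. Distal neurons had 103.8 CPM of Cdh19, so it was not restricted to this cluster. Among the leading genes beside Prx and Pmp22 were A330069K06Rik, Cdh1 (E-cadherin), Sptbn5, Col28a1 (a collagen), Prdm16, Adgrg6, a receptor needed for Schwann cell myelination, and Cfap100. Of these, Sptbn5 had 28 UMIs in 11 barcodes, 16 of them from the core, and Adgrg6 19 UMIs in 15 barcodes, 17 of them distal. All 10 genes of the dystroglycan complex were detected, at 2.4-fold the level elsewhere, the oligodendrocyte list was 1.38-fold and the neuron list 0.4-fold. The ependymal list was 15.3-fold, from 12 UMIs with 4 of 6 genes detected, and the fibroblast list 2.53-fold, from 13 UMIs.

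Across 21 class-by-library units, on log2(CPM + 1), the genes most like each member were listed as a description, since the units share libraries and depth. Among the genes closest to Prx was 4930532G15Rik (Pearson r = 0.846). Pmp22 ran closest to Tuba1a (0.897) and Rps3a1 (0.894), Ncmap to Atmin (0.921) and Gpr22 (0.915), and Drp2 to Zfp597 (0.875) and Zbtb2 (0.866). Scn7a ran closest to Dnajb5 (0.817) and Gm15397 (0.799), and Egfl8 to Polr2d (0.898) and Fam136a (0.886). The summed family ran closest to B230217J21Rik (0.869), Skp1a (0.857), Trabd (0.849), Ap2s1 (0.842) and Pgs1 (0.84). Prx and Pmp22 correlated at 0.7.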

How the data were processed

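The authors deposited raw UMI counts per gene and barcode, written by Cell Ranger 7.1.0 per the file headers. The submitters' processing notes name Cell Ranger, Seurat, GRCh38 and mm10 with no role. Counting settings are not given in the sources used here. Positions came from GENCODE M21, which holds 32158 of 32285 features (99.6%). The members, gene lists and tests were chosen with earlier results of these data known.

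A barcode was kept with 300 genes or more and a mitochondrial share of 5% or less. Counts were scaled to 10000 and log-transformed, and 2000 variable genes without the members gave 40 components, 15 neighbours and 31 Leiden clusters at resolution 1.0 (scanpy 1.11.5, leidenalg 0.10.2, Python 3.11.15, numpy 2.4.6, scipy 1.17.1). Clusters took the class with the highest marker score, unless at least 3 of their 10 leading genes were haemoglobin or mitochondrial genes or they were mixed or background-like. The score minimum (0.5), its lead over the next class (0.15) and the background-like threshold (1.15) were set after seeing the data. Scrublet called 0 core and 1489 distal barcodes (20%). The core run was treated as failed and doublets were left in.

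UMIs were summed by class and library. Intervals are exact Poisson (CPM), Clopper-Pearson (shares) and conditional (ratios of libraries or classes). For ratios of barcodes with 2 family UMIs over weighted barcodes with none, they are Poisson on the UMIs of the former only. The counting error of the weighted barcodes is left out of them. The 2 libraries were never tested against each other. A call needed 1.5-fold, 10 CPM and 10 UMIs. Limits for 0 UMIs use 3 counts. Barcodes with 2 family UMIs were matched by class and UMI decile, on code checked with simulated counts. Named genes were all members, up to 3 per list with the highest CPM and at least 10 UMIs, markers at 0, the 10 highest ratios (at least 20 UMIs in 5 barcodes for the content of those barcodes) and the closest genes by r (at least 100 UMIs). Others were named after their values were seen. For 2 genes of the marker lists, which count in the list sums, values are not reported here.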

Additional observations from a re-analysis of the deposited data

Results flagged for a closer look

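Pmp22 had opposite core over distal ratios in 2 classes. The ratio was 0.189 in neurons (0.132 to 0.267; 54 UMIs in the core and 93 in the distal library) and 4.61 in cluster 9 (3.24 to 6.55; 65 UMIs in the core and 71 in the distal library). Of the core UMIs in cluster 9, 39 lay in a single barcode and 14 in another, so its ratio rests mainly on these barcodes. Every class has 1 library per region, so the difference between the 2 ratios was not tested.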

How the results depend on the processing

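No paired analysis was possible because each region has 1 library. Of 137 alternatives to 21 results, 107 stayed within the counting interval or count limit of the main value, 30 moved and 0 reversed a called direction; 135 of the 137 were planned and the rest were added after seeing the data. With each nucleus classed on its own, Drp2 in distal oligodendrocytes was 11.4 CPM, Scn7a in distal fibroblasts 20.3 CPM, neurons 71.4% of core and 26.2% of distal barcodes with 2 family UMIs, and the oligodendrocyte ratio in core neurons 1.74. Resolution 2.0 gave 1027.8 CPM of Pmp22 in core cluster 9, a core over distal ratio of 9.07 there and a distal neuron oligodendrocyte ratio of 1.28, and resolution 0.5 gave 1.98 for core neurons. A minimum of 500 genes gave oligodendrocyte ratios of 2.02 in core and 1.27 in distal neurons. Removing the top 5% of Scrublet scores gave oligodendrocyte ratios of 1.94 in core and 1.02 in distal neurons. Without depth weighting, the distal neuron oligodendrocyte ratio, 1.09 in the main setting and under the 1.5-fold needed for a call, turned to 0.945. With 2 different members required, 0.636% of core and 1.41% of distal barcodes qualified, with oligodendrocyte ratios of 1.97 in core and 1.41 in distal neurons. With 3 UMIs required, 0.153% of core and 0.658% of distal barcodes qualified, 68% of the core ones neurons. Thinned to 1000 UMIs, 0.233% of core and 0.573% of distal barcodes qualified, of which 61.5% in the core and 20.6% in the distal library were neurons. Without Pmp22, 1.26% of distal barcodes qualified, 59.6% of them neurons. In neurons, TMM scaling and dropping the minimum each put 2 members past 1.5-fold instead of 1. TMM took Ncmap past the fold and made 47.8% of calls lower in the core, against 71% unscaled. Dropping the minimum added Prx, with 43.1% of 25078 genes called. Without the core barcode richest in Pmp22, an added alternative, the cluster 9 ratio was 2.09 for Pmp22 and 2.7 for Drp2. The causes were not tested. With 500 genes, and with each nucleus classed on its own, cluster 9 did not exist and gave no value. Depth limits Prx, Egfl8 and Pmp2 most, with at most 37 UMIs each in a library.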
